A study of Elaeis guineensis with 15 samples.

Results

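Oil palm fruit is shed through the abscission zone (AZ), a layer of small cells at the base of the fruit where neighbouring cells come apart. A group of 65 transcripts was already abundant in field AZ tissue at 120 days after pollination (DAP), when no shedding was observed, and lay within 2-fold of that level at 160 DAP, when fruit were shed. They were chosen by their values: mRNA transcripts with at least 30 RPKM at 120 DAP, a 120 DAP value at least 16 times the 30 DAP value (0.1 RPKM added to both), and a 160 DAP value within 2-fold of the 120 DAP value. RPKM is a read count divided by transcript length and by library depth. The thresholds were met by 65 of 39453 mRNA transcripts (0.165%), so the field values of the 65 describe how they were selected and no test was made on them.

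The field samples were fruit bases holding the AZ at 30, 120 and 160 DAP, with about 50 AZ pieces pooled in each sample and 1 Illumina library for each age. The labels place all samples of the study in 1 tenera clone grown in a Thai plantation, while its methods name that clone only for the ethylene experiment. A second experiment, which the selection did not use, exposed spikelets to 10 μl/l ethylene for 0, 3, 6 or 9 h. It covers the AZ of ripe fruit at 150 DAP (AZ150), the adjacent pedicel at 150 DAP (P150) and the AZ of immature fruit at 30 DAP (AZ30), with 1 Roche pyrosequencing library for every tissue at every time, 12 in all. No condition has a replicate library. Untreated tissue of 3, 6 and 9 h was not analysed here, so an effect of ethylene and one of elapsed time cannot be told apart. As bulk tissue was sequenced, fewer cells of a type and less RNA per cell cannot be told apart in any of these libraries.

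The field libraries held 73500310, 84184660 and 42896169 reads at 30, 120 and 160 DAP, as recovered from the RPKM values, and the pyrosequencing libraries held from 26560 reads summed over contigs in AZ30 at 0 h to 302391 in P150 at 6 h. Reads that were not assembled are outside these sums, which hold 57.7% to 72.5% of the reads of a library, the lowest share being that of AZ30 at 0 h. All values per 100000 reads below are per 100000 reads in contigs. EgPG4, a polygalacturonase transcript known from the oil palm AZ during ripe fruit abscission, was at 4.83, 35.9 and 1938 RPKM at the 3 ages, which matches the ages in the labels. The study states that EgPG4 is also expressed in ripening mesocarp, so it does not mark the AZ alone. For EgPGAZ1 and EgPGAZ2, which the study calls specific to the AZ, no field value was matched here. Genes of tissues other than the AZ that the fruit base could hold were checked among the 867 transcripts with a description in the supplementary tables of the study. These tables list contigs that the study had called after ethylene in AZ150, so the 867 are no neutral sample. Between 30 and 120 DAP, 424 of the 867 went up 2-fold or more and 51 went down as much, and the median log2 ratio was 0.99. Here and in all gene lists, 0.1 RPKM was added to each age, and a 2-fold change also required at least 1 RPKM at the higher age. Plastid fatty acid synthesis, active in ripening mesocarp, had 8 of 12 described transcripts at least 2-fold higher and a median log2 ratio of 1.71. Carotenoid synthesis had 5 of 5 higher and a median of 1.89, and cell division had 5 of 12 higher, 2 lower and a median of 0.84. Lignin and phenylpropanoid enzymes, for lignified tissue, had 5 of 6 higher and a median of 2.40. Photosynthesis had 1 of 2 higher, and the 1 described transcript of triacylglycerol assembly and lipid droplets was higher by 5.67 on the log2 scale. None of the described transcripts of these lists is among the 65, but 41 of the 65 have no description and could not be matched. The part of mesocarp, dividing tissue or any other tissue in the values of the 65 was not tested.

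Cell separation in an AZ requires enzymes that open the cell wall, among them polygalacturonases, which cut pectin, and glucanases, and it is set off by ethylene once the zone has become competent to respond. Separating tissues are also known to express secreted defence and lipid-binding proteins and enzymes that recycle amino acids and nucleotides. Of the 65 transcripts, 24 have a contig in the supplementary tables that name the contigs of the pyrosequencing assembly and were described from there. The other 41 are given by identifier or locus only, since no product name was at hand.

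The median level of the 65 transcripts was 2.27 RPKM (range 0.180 to 59.1) in the 30 DAP library. It was 93.0 (30.6 to 2572) in the 120 DAP library and 73.1 (16.6 to 1964) in the 160 DAP library. Together they made up 0.05%, 1.72% and 1.65% of the summed RPKM of these libraries. The most abundant 5 carried 45.2% of the sum of the 65 at 120 DAP, and 39 of the 65 lay between 30 and 100 RPKM at that age. The ratio of 120 to 30 DAP had a median of 33.3 and ranged from 17.5 to 239.6, with 9 transcripts above 100. At 30 DAP, 14 transcripts were below 1 RPKM.

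**Figure D1:**
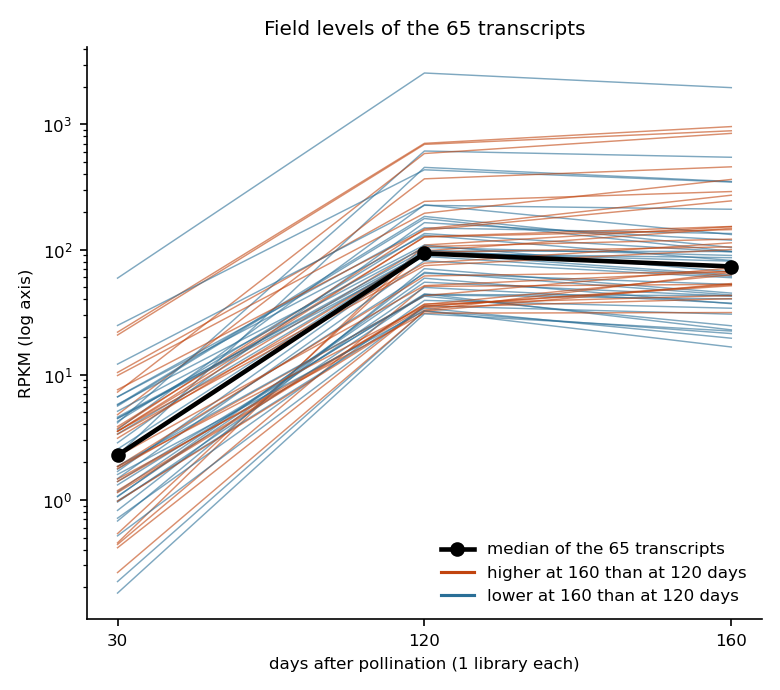
RPKM on a log axis of each of the 65 transcripts (thin lines) and their median (black) at 30, 120 and 160 DAP, 1 library for each age. The median goes from 2.27 to 93.0 and 73.1, and 28 lines end higher and 37 lower at 160 than at 120 DAP.

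The most abundant was a lipid transfer protein transcript (XM_010928205.1, LOC105048762), of a family of small secreted proteins that bind lipids. It was at 59.1, 2572 and 1964 RPKM at 30, 120 and 160 DAP, the order of ages kept below, and its 30 DAP level is also the highest of the 65. Next came XM_010920837.1, with 21.9, 705 and 959.7 RPKM, and XM_010920836.1, with 20.7, 692 and 888. The latter encodes a protein with a heavy-metal-associated domain, which binds metal ions. These 2 accession numbers follow each other, neither has a locus in the reference, and their values differ by little at each age. XM_010908112.1 had 4.12, 612 and 546 RPKM, and XM_010912311.1 had 7.25, 585 and 847, neither with a description.

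A beta-1,3-glucanase transcript (XM_010923592.1, LOC105045348), whose enzyme cuts callose and related wall glucans, was at 2.27, 453 and 349 RPKM. Its ratio of 120 to 30 DAP of 199.6 (95% interval 174 to 229.9) was the second largest of the 65. All intervals on field ratios are exact intervals from the recovered reads, cover counting error only, and say nothing of the spread between trees or libraries. It was the only one of the 24 described transcripts in the list of callose and beta-1,3-glucanase genes, of which all 6 described transcripts were at least 2-fold higher at 120 DAP. None of the 24 was a pectin enzyme, expansin, xyloglucan enzyme, cellulase or mannanase.

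Of membrane and defence proteins, an NHL1-like transcript (XM_010911516.1, LOC105035820), of a family named for its response to bacterial harpin, was at 24.7, 433 and 346 RPKM. It had the smallest ratio of the 65, 17.5 (16.8 to 18.3). A transcript of LOC105046105 (XM_010924606.1) was at 9.84, 195 and 363 RPKM, and its descriptions name either an osmotin or a hypothetical protein, so its identity is unclear. A cation efflux transcript (XM_010918067.1, LOC105041204), of a family that moves metal ions out of the cytosol, was at 1.16, 54.8 and 42.5 RPKM.

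Transcripts described as enzymes of amino acid, nucleotide or sugar metabolism, or as similar to one, formed a further group. A branched-chain aminotransferase-like transcript (XM_010917704.1, LOC105040943), of the enzyme family that adds or removes the amino group of leucine, isoleucine and valine, was at 3.64, 228 and 132 RPKM. A transcript described as AILP1 and as similar to asparagine synthetase (XM_010933651.1, LOC105052726) was at 4.58, 93.3 and 62.6. A cytidine deaminase (XM_010941469.1, LOC105058482), which turns cytidine into uridine, was at 4.23, 134 and 95.8. These 3 were lower at 160 than at 120 DAP, both as deposited and after the rescaling given further on.

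A haloacid dehalogenase-type pyrimidine nucleotidase (XM_010922249.1, LOC105044382) was at 0.981, 34.0 and 19.6 RPKM, and a nuclease of the staphylococcal type (XM_010922760.1, LOC105044760) was at 0.713, 39.2 and 33.9. A gluconokinase-like transcript (XM_010945347.1, LOC105061334), whose enzyme phosphorylates gluconate, was at 5.10, 104 and 89.6. A transcript for GEK1 (XM_010943966.1, LOC105060305), which removes D-amino acids from tRNA, was at 6.64, 129.8 and 81.8. As deposited, these 4 were also highest at 120 DAP, but after rescaling the nuclease and the gluconokinase-like transcript were higher at 160 DAP.

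A bHLH factor named for CIB1 (XM_010941784.1, LOC105058752), which in Arabidopsis binds a cryptochrome and promotes flowering, was at 3.53, 105 and 121 RPKM. A LOG8-like transcript (XM_010910661.1, LOC105035179), of the enzymes that release active cytokinin from its nucleotide, was at 3.34, 74.3 and 99.98. A BKI1-like transcript (XM_010941139.1, LOC105058257), named for an inhibitor of the brassinosteroid receptor of Arabidopsis, was at 0.440, 50.7 and 52.7. Each of these 3 was at or above its 120 DAP level at 160 DAP.

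The CBS-domain transcript CBSX1 (XM_010930044.1, LOC105050145), whose Arabidopsis counterpart is a plastid protein that acts on thioredoxins, was at 7.58, 143 and 245 RPKM. A leucine-rich repeat transcript (XM_010910257.1, LOC105034923) was at 3.72, 146 and 272, and a receptor-like kinase (XM_010943422.1, LOC105059910) was at 0.823, 65.7 and 43.3. A cytochrome P450 of the 71A group (XM_010918186.1, LOC105041286), of a family that oxidises small molecules, had the largest ratio of the 65. It was at 0.453, 109 and 152 RPKM, a ratio of 239.6 (188 to 311).

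Transcripts with little or no description completed the 24. LOC105044287 (XM_010922107.1), with no description, was at 4.79, 367 and 458 RPKM, and LOC105038729 (XM_010914594.1), of unknown function, was at 0.414, 35.2 and 51.3. An oxysterol-binding protein (XM_010928918.1, LOC105049311), of a family that carries sterols between membranes, was at 1.40, 34.5 and 40.5, and an alpha/beta hydrolase (XM_010912313.1) was at 0.960, 43.8 and 42.7.

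Among the 41 transcripts without a description, XM_010917971.1 (LOC105041138) had 0.537, 97.4 and 148 RPKM and a ratio of 120 to 30 DAP of 181. The lowest at 30 DAP was XM_010933163.1 (LOC105052376), with 0.180, 30.6 and 22.3 RPKM and a ratio of 170.0 (106 to 292). XM_010912745.1 (LOC105037041) had 0.222, 32.2 and 21.3, and XM_010916388.1 had 0.262, 32.1 and 53.5. At 30 DAP these last 3 rested on 17, 14 and 7 recovered reads, and the interval of the ratio of XM_010916388.1, 59.2 to 305, was the widest among them relative to its value. For each of the 65, the lower bound of the counting interval of the ratio was above 16.

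From 120 to 160 DAP, where the selection allows a change of up to 2-fold in either direction, 28 transcripts were higher and 37 lower as deposited. The counting interval lay above 1 for 26 and below 1 for 35. The median ratio was 0.925 (log2 -0.11), beside a median log2 ratio of -0.67 over all 3935 mRNA transcripts of at least 30 RPKM at 120 DAP. Rescaling the 3 libraries by their median ratio over transcripts above 1 RPKM in all 3 shifts the ratio of 160 to 120 DAP by 0.44 on the log2 scale. The split then turned to 46 higher and 19 lower and the median log2 ratio to 0.32. The direction from 120 to 160 DAP therefore depends on the scaling for 18 transcripts, and no direction is drawn here for the set.

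**Figure D2:**
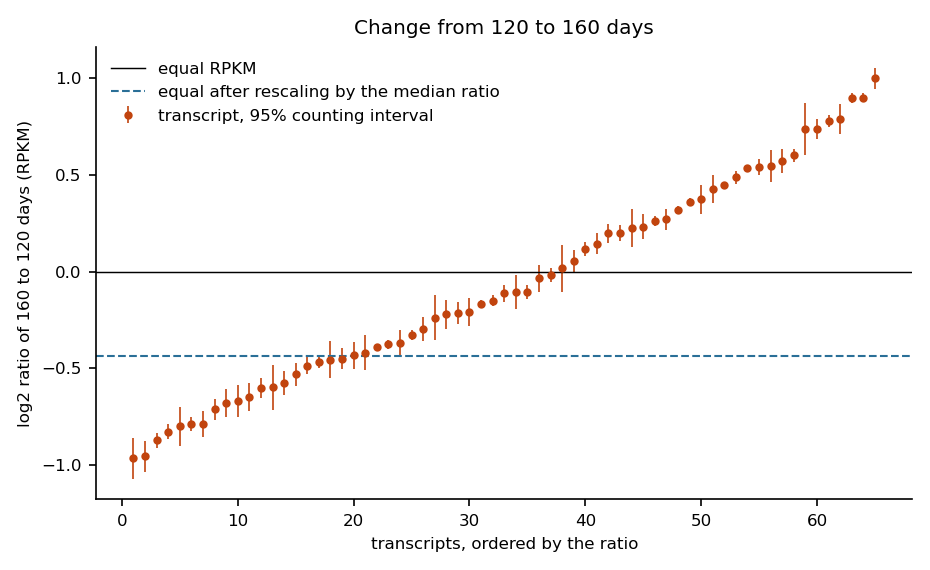
Log2 ratio of 160 to 120 DAP (RPKM as deposited) of the 65 transcripts in order of the ratio, with 95% counting intervals. The solid line marks equal RPKM, with 28 transcripts above it, and the dashed line marks equality after rescaling by the median ratio, with 46 above it.

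The largest increases from 120 to 160 DAP within the 65 were those of XM_010925764.1 (LOC105047002), from 32.9 to 65.6 RPKM, LOC105046105, from 195 to 363, and the leucine-rich repeat transcript, from 146 to 272. XM_010919121.1 (LOC105042019) followed, from 36.4 to 62.8 RPKM, with CBSX1. The largest decreases were those of XM_010943967.1, from 32.4 to 16.6 RPKM, XM_010940020.1 (LOC105057418), from 44.2 to 22.8, and the 2 transcripts of LOC105033046, from 177 to 96.6 and from 184 to 104. The pyrimidine nucleotidase had the next lowest ratio, 0.575 (0.536 to 0.616).

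In all, 193 transcripts had at least 30 RPKM at 120 DAP and at least 16 times the 30 DAP value. Of these, 65 (33.7%) stayed within 2-fold at 160 DAP and are described here, 47 were over 2-fold lower and 81 over 2-fold higher. The median level at 120 DAP was 93.0 RPKM in the 65, 125 in those that were lower at 160 DAP and 92.9 in those that were higher. Just inside the limits of the selection, XM_010933163.1 had 30.6 RPKM at 120 DAP and the NHL1-like transcript had a ratio of 17.5 (with 0.1 added). Just outside, XM_010930546.1 had 29.2 RPKM at 120 DAP, XM_010944402.1 had a ratio of 14.9, XM_010917294.1 was 2.03 times higher at 160 than at 120 DAP, and XM_010913854.1 had a ratio of 160 to 120 DAP of 0.484.

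**Figure D3:**
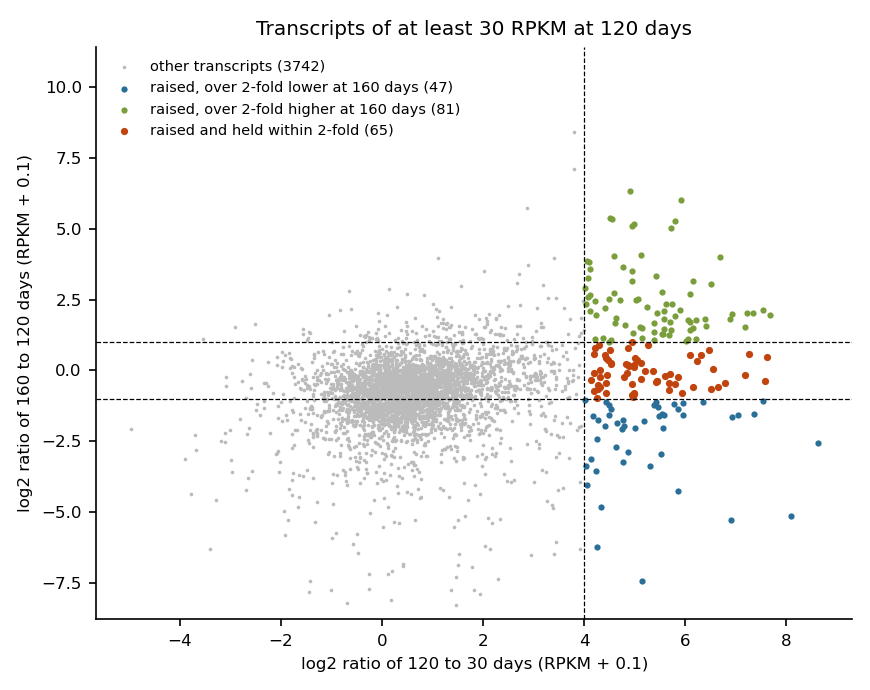
Log2 ratio of 160 to 120 DAP against log2 ratio of 120 to 30 DAP (0.1 RPKM added) for the 3935 mRNA transcripts of at least 30 RPKM at 120 DAP. Dashed lines mark the limits of the selection, which hold the 65 transcripts (red) between 81 that were over 2-fold higher at 160 DAP (green) and 47 that were over 2-fold lower (blue).

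The 65 transcripts are not 65 separate genes. A locus was known for 51, and these fall on 46 loci, with 2 transcripts each at LOC105033046, LOC105049311, LOC105055099, LOC105059910 and LOC105060305. The mapping shares reads between transcripts of a locus, so the split of their values is uncertain. By accession number, 9 groups of 2 or 3 transcripts stand at most 2 apart, and with each group counted once, 55 units remain. Among transcripts with a known locus, none outside the 65 maps to the 46 loci, but 16827 of the 39453 mRNA transcripts (42.7%) have no locus here and could not be placed. Of these, XM_010922108.1 and XM_010922111.1 stand next to the member XM_010922107.1 of LOC105044287 by accession number, and their ratios of 160 to 120 DAP, 2.08 and 2.10, put them just outside the upper limit. In the gene order of the reference, 43 loci could be placed, and 2 pairs lie near each other, LOC105044083 and LOC105044076 with 5 genes between them and LOC105060714 and LOC105032518 with 9. Of the 62 genes measured in the field that lie directly beside one of the 43 loci, 18 (29.0%) were at least 2-fold higher at 120 than at 30 DAP. The share was 13.8% of all 18289 loci measured. Both counts add 0.1 RPKM to each age and require at least 1 RPKM at 120 DAP, which weakly expressed loci cannot meet. The members had a median length of 1288 bases, as recovered from the RPKM values, beside 1583 for all mRNA transcripts.

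The ethylene experiment gives values for some of the same transcripts in libraries that the selection did not use. The supplementary tables of the study link 27 of its contigs to 24 of the 65 transcripts (36.9%). They link a contig to 14.1% of all transcripts of at least 30 RPKM at 120 DAP, but to 37.8% of the 193 raised by 120 DAP. The share was 48.1% of the 81 over 2-fold higher at 160 DAP and 21.3% of the 47 over 2-fold lower. The other 41 of the 65 were not linked to a contig here, which does not show that the experiment lacks them. These tables list contigs that the study had called after ethylene in AZ150, and 16 of the 27 are also in the table of contigs that it had chosen because AZ150 differed from both other tissues. The 27 contigs are therefore no independent evidence for either direction. The other 11 were not chosen for a tissue difference, and their counts are given apart. They are not among the contigs kept in that second choice, so they are no neutral sample either.

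Over the time course, 16 of the contigs of the 65 transcripts were higher in the ripe AZ than in the immature AZ, and 10 did not pass the test. Of 26 contigs with enough reads to test, the 16 were higher and 0 lower in AZ150 than in AZ30 at an adjusted p under 0.05 (edgeR quasi-likelihood test with Benjamini-Hochberg adjustment), where 2.37% of the 10762 contigs tested were higher and 2.07% lower. All 26 differences were positive, with a median of 2.198 on the log2 scale beside 0.02 over all contigs tested. Over the 942 other contigs of the same chosen tables, 15.2% were higher and 1.38% lower, 74.2% of the differences were positive and the median was 0.63. Without adjustment, 20 were higher and 0 lower, and with DESeq2 15 and 0. Of the 11 contigs not chosen for a tissue difference, 5 were higher, beside 10.5% of the 497 other contigs chosen in the same way. The count went from 16 to 9 without the 3 h libraries and to 10 without the 6 h libraries. Since each condition has 1 library, the 4 times stand in for repeats. The spread behind the p-values is what the additive terms for tissue and time leave over. It mixes tissue differences in the response over time with differences between libraries, and holds no measure of the spread between trees.

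The CIB1-like bHLH contig had 2.92, 17.7, 41.3 and 40.1 reads per 100000 in AZ150 at 0, 3, 6 and 9 h and no read in any of the 4 AZ30 libraries. Against a floor of 3 reads over those 4 libraries it was at least 38.0-fold higher in AZ150 (adjusted p = 7.2e-11). Its AZ150 value at 0 h lies below what a count of 0 allows in AZ30 at that time, so the groups were not shown to be apart at every time. LOC105044287 had 43.9, 44.3, 92.0 and 101 reads per 100000 in AZ150 and 0, 0.923, 2.55 and 1.87 in AZ30. Here every AZ150 library was above every AZ30 library, and the difference was 5.43 ± 0.65 (SE) on the log2 scale (edgeR, adjusted p = 1.6e-13). The study had chosen the CIB1-like contig for a tissue difference, and LOC105044287 only for its call after ethylene.

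The beta-1,3-glucanase contig had 28.3, 26.6, 28.3 and 73.1 reads per 100000 in AZ150, 0, 1.85, 0 and 4.66 in AZ30, and 0.452, 0.499, 0 and 2.40 in P150. Every AZ150 library was above every other library for this contig. By edgeR it was higher in AZ150 by 4.35 ± 0.65 (SE) on the log2 scale than in AZ30 (adjusted p = 9.7e-09). Against P150 it was higher by 5.92 ± 0.69 (adjusted p = 1.7e-14). The study had chosen this contig because AZ150 differed from both other tissues, so these p-values are no independent evidence. With each count of 0 set to the 3 reads that it allows, AZ150 stayed above AZ30 in all libraries for 4 of the 27 contigs, beside 1.57% of all contigs tested. They were LOC105044287, the glucanase, AILP1 and GEK1, the last 3 of which the study had chosen for a tissue difference.

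Against the pedicel of the same age, fewer of the 26 contigs differed. Of them, 7 were higher and 0 lower in AZ150 than in P150 (edgeR, adjusted p under 0.05), where 0.623% of all contigs tested were higher and 0.0465% lower, and the median difference was 1.02 on the log2 scale beside -0.12 over all contigs. Over the 942 other contigs of the same tables, 4.25% were higher and 0.106% lower, with a median of 0.20. Without adjustment, 10 were higher and 0 lower, and with DESeq2 5 and 0. The 7 were the contigs of the glucanase, the CIB1-like factor, the nuclease, the cation efflux protein, GEK1, 1 cytidine deaminase and AILP1. Of the 11 contigs not chosen for a tissue difference, 1 was higher, beside 1.21% of the 497 others. The count was 2 without the 0 h libraries, 4 without the 3 h and 3 without the 9 h libraries, and 2 with a weaker filter on low counts.

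Besides the glucanase and the CIB1-like factor, which stayed called against P150 under all 7 alternatives that could test them, 2 contigs were above every P150 library in all 4 AZ150 libraries. Together these are 4 of the 27, counts of 0 again set to 3 reads, beside 0.846% of all contigs tested. For the CIB1-like contig this rests on 3 reads in AZ150 at 0 h (2.92 per 100000) against 1 read in P150 at 9 h (2.40). A count of 0 in that P150 library would have allowed 7.21, so the gap is within counting error. All 4 are among the 16 that the study chose because AZ150 differed from both other tissues, so this count is no independent evidence. The AILP1 contig had 82.8, 115, 93.2 and 131 reads per 100000 in AZ150 and 27.6, 35.0, 24.5 and 28.9 in P150, a difference of 1.80 ± 0.45 (SE) on the log2 scale (adjusted p = 0.013). The GEK1 contig had 21.4, 51.4, 18.9 and 51.1 in AZ150 and 3.62, 18.5, 2.98 and 7.21 in P150, a difference of 2.26 ± 0.50 (adjusted p = 0.0022).

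For some contigs the difference between the ripe AZ and the ripe pedicel was small beside its SE. LOC105044287 had 61.5, 40.0, 74.1 and 96.2 reads per 100000 in P150, a difference of 0.05 ± 0.45 (SE) from AZ150 on the log2 scale. For the main lipid transfer protein contig the difference was 0.02 ± 0.50, for the leucine-rich repeat contig 0.15 ± 0.44, for the receptor-like kinase 0.11 ± 0.48 and for the NHL1-like contig -0.18 ± 0.46. None of these 5 passed the test, which at these SE does not show equal levels. Other contigs that did not pass had larger differences, up to 2.13 ± 0.69 for the LOG8-like contig. Of the 26 differences from P150, 25 were positive. The field libraries hold the fruit base, and how much of the field values came from tissue other than the AZ was not tested.

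**Figure D4:**
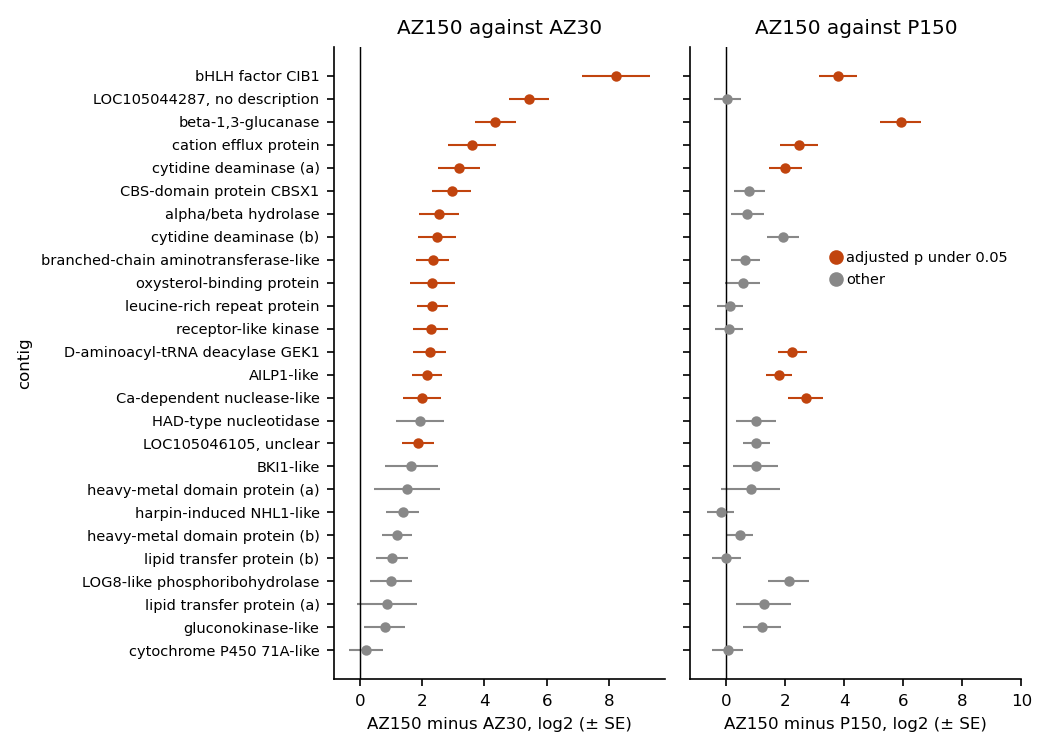
Log2 differences ± SE (edgeR) of AZ150 from AZ30 (left) and from P150 (right) over the 4 times for the 26 contigs tested, in red where the adjusted p is under 0.05. On the left 16 are red and all 26 lie above 0, and on the right 7 are red and 25 lie above 0. The CIB1-like contig has no read in AZ30, so its left value depends on the prior count.

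Before ethylene, the summed reads per 100000 of the contigs were higher in the ripe AZ than in the immature AZ. In AZ150 at 0 h, 24 of the 27 had at least 1 read and together they had 365 reads, or 356 per 100000. These reads were unevenly spread over the contigs. The AILP1 contig had 85 and the heavy-metal domain contig had 48, while the CBSX1 contig had 1. The main lipid transfer protein contig, whose transcript was the most abundant of the 65 at 120 DAP, had 2. In AZ30 at 0 h, 3 of the 27 had a read and together they had 4 reads, or 15.1 per 100000. The ratio of AZ150 to AZ30 was 23.6 (95% interval 9.15 to 87.2, counting error only). The ripe pedicel at 0 h had 473 reads, or 214 per 100000, and AZ150 was 1.66 times (1.45 to 1.91) above it.

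Contig by contig, 5 of the 27 were higher in AZ150 than in AZ30 at 0 h and none lower (Audic and Claverie test, which compares 2 libraries and not the conditions, p under 0.01 without adjustment), where 0.579% of the 24013 contigs with a read were higher and 2.97% lower. They were AILP1 (85 reads against 0), the heavy-metal domain contig (48 against 0), LOC105044287 (45 against 0), the leucine-rich repeat contig (42 against 2) and the glucanase (29 against 0). The AZ30 library at 0 h was the smallest of the 12, 1 read there stands for 3.77 per 100000, and a count of 0 allows up to 11.3. A difference was thus not detectable at this depth for the weakly read contigs, and after Benjamini-Hochberg adjustment 3 of the 5 remained.

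After ethylene, the summed reads of the 27 contigs in AZ150 went from 356 per 100000 at 0 h to 932, 1000.1 and 1178 at 3, 6 and 9 h. Against 0 h, 14 contigs were higher at 3 h, 17 at 6 h and 22 at 9 h and 0 were lower (Audic and Claverie test, p under 0.01), beside 1.93%, 1.93% and 1.98% of contigs called higher and 0.929%, 1.36% and 2.61% called lower in the same libraries. Each of the 27 was called at 1 time or more, which follows from how the tables were made. The highest value in AZ150 was at 3 h for 8 contigs, at 6 h for 10, at 9 h for 9 and at 0 h for none.

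The main lipid transfer protein contig had 1.95, 62.0, 64.9 and 128 reads per 100000 in AZ150, a 65.8-fold difference at 9 h from 2 reads at 0 h. The CBSX1 contig had 0.975, 28.4, 22.4 and 42.5, from 1 read at 0 h, and the branched-chain aminotransferase-like contig had 3.90, 63.8, 67.2 and 61.3. Of the 5 contigs most read at 0 h, AILP1 had a highest ratio to 0 h of 1.58, the heavy-metal domain contig of 4.19, LOC105044287 of 2.31, the leucine-rich repeat contig of 3.38 and the glucanase of 2.59. The difference between these ratios and those of weakly read contigs was not tested.

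Higher values after ethylene were not particular to the ripe AZ. In P150, 13, 15 and 11 of the 27 contigs were called higher at 3, 6 and 9 h, beside 2.46%, 2.85% and 3.07% of all contigs. The 27 had been chosen for a call after ethylene in AZ150, and no share is given here over other contigs chosen in that way. LOC105044287 was called lower at 3 h, beside 2.31%, 4.27% and 0.551% of all contigs lower at the 3 times. The sum of the 27 in P150 was 214, 508, 680 and 582 per 100000. The heavy-metal domain contig, for example, had 15.4, 62.9, 178 and 96.2 reads per 100000 there, and the lipid transfer protein contig had 2.26, 54.9, 75.4 and 98.6.

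In AZ30, 1, 2 and 6 of the 27 contigs were called higher at 3, 6 and 9 h, beside 0.523%, 0.324% and 0.838% of all contigs. None of the 27 was called lower, where 2.22%, 2.52% and 6.22% of all contigs were. Each call is against AZ30 at 0 h, the smallest of the 12 libraries, where a count of 0 allows up to 11.3 per 100000. The LOG8-like contig, with 0 reads at 0 h and 18.2 per 100000 at 9 h, was not called. The number of calls in AZ30 can therefore not be set against that in P150. As for P150, no share is given over other contigs chosen in the same way. The sum of the 27 was 15.1, 184, 115 and 574 per 100000, and the 9 h library, with 214449 reads, is the deepest of that tissue. At 9 h the lipid transfer protein contig had 106 reads per 100000 in AZ30, close to the 128 in AZ150, while the heavy-metal domain contig had 139 in AZ30 and 121 in AZ150. The cytochrome P450 contig had 35.4 in AZ30 and 19.7 in AZ150. The CIB1-like contig had none in AZ30, and LOC105044287 had 1.87 there. The difference between the tissues in the ethylene response itself was not tested.

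**Figure D5:**
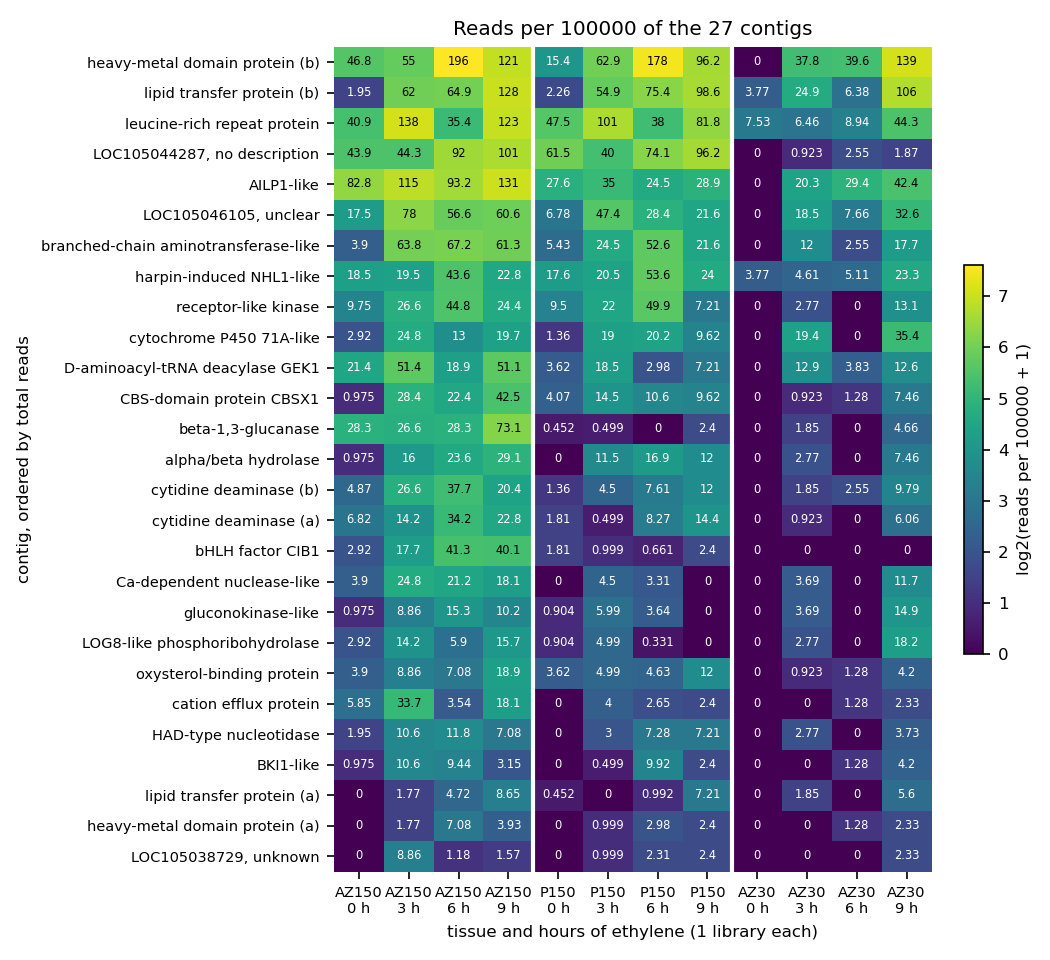
Reads per 100000 (numbers in the cells, colour on the log2(value + 1) scale) of the 27 contigs in the 12 libraries of the ethylene experiment, 1 library for each tissue and time, in order of total reads. The AZ30 column at 0 h is at 0 for 24 of the 27, and the CIB1-like contig is at 0 in all 4 AZ30 columns.

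The transcripts that were over 2-fold higher or lower at 160 DAP can be set beside the 65 in the same libraries. The 55 contigs of the 81 higher transcripts summed to 594 reads per 100000 in AZ150 at 0 h and 6897 at 9 h, an 11.6-fold difference, beside 3.31-fold for the 27 contigs of the 65. For the 11 contigs of the 47 lower transcripts the sum went from 129 to 743, or 5.78-fold. Against AZ30, 27 of 52 contigs of the higher transcripts (51.9%) and 4 of 11 of the lower ones were higher in AZ150, beside 16 of 26 (61.5%) here. All 3 sets come from the same chosen tables, and the differences between them were not tested.

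By gene list, 11 of the 24 described transcripts fell into 10 of the 42 lists used, and no list held more than 2. Amino acid metabolism held 2, the aminotransferase and AILP1, the latter placed there only by its description as similar to asparagine synthetase. Of the 22 described transcripts of this list, 18 were at least 2-fold higher and 1 lower at 120 DAP. Of its 24 contigs tested, 12 were higher and 2 lower in AZ150 than in AZ30. Over all described transcripts, 48.9% were at least 2-fold higher at 120 DAP and 15.9% of 862 contigs were higher in AZ150. Protein kinases and receptors held 2, the receptor-like kinase and the leucine-rich repeat transcript, with 11 of 32 (34.4%) higher and 2 lower at 120 DAP. Cytochrome P450 held 1 of 10, all 10 of them at least 2-fold higher at 120 DAP. The lists of ethylene synthesis, perception and response factors, auxin, gibberellin, abscisic acid and jasmonate held none of the 24 described transcripts, nor did the MADS-box, NAC, MYB, WRKY and homeobox factors.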

How the data were processed

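The authors assembled the pyrosequencing reads into contigs and deposited raw counts of reads per contig. Field reads were cleaned with Cutadapt, aligned by BWA-MEM with default settings to the predicted transcripts of EG5 and counted with Samtools. The authors deposited these as RPKM, under column titles that say read counts. Their versions were not given in the sources used here. A further 17 columns were not used. The members and lists were chosen with earlier results of these data known.

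Everything else was computed here (Python 3.11.15, pandas 2.3.3, scipy 1.17.1, R 4.3.3). Field reads were recovered as the smallest whole numbers that give the 3 RPKM values of a transcript, which held for all 44360 transcripts within 0.001, so they are lower bounds. In simulated data, 93.2% of 2230 transcripts with at least 100 reads were recovered exactly. Contigs were joined to transcripts by the RefSeq identifiers of the supplementary tables, the first of which is held in part, and 49 members matched a locus of the EG11 reference by accession.

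Contig counts were tested with edgeR 4.0.16 (TMM, tissue and time as additive terms, at least 3 reads in at least 4 libraries, 6 residual degrees of freedom). What edgeR names the biological coefficient of variation was 0.421, estimated without biological replicates. Of 200 contigs simulated 4-fold changed, 48 (AZ150 against AZ30) and 53 (against P150) of 9682 tested were recovered, and of 200 changed 16-fold, 165 and 170 of 9679. DESeq2 1.42.0, other scalings and library totals, filters and thresholds, and leaving out each time in turn were alternatives. Named transcripts are the 15 most abundant at 120 DAP, the 10 largest ratios of 120 to 30 DAP, the 5 largest changes either way from 120 to 160 DAP, those nearest the thresholds, those in gene lists and those with contigs. The rule named up to 25 members with contigs, which covers all 24.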

Additional observations from a re-analysis of the deposited data

Results flagged for a closer look

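Noncoding transcripts were outside the selection. Of these, 2 met the same thresholds and were above their 30 DAP level, which is what drew attention to them. At 30, 120 and 160 DAP, XR_833385.1 was at 10.9, 200.3 and 189 RPKM, and XR_834442.1 (LOC105060497) was at 1.92, 43.5 and 73.3. With them the number of transcripts would be 67. No cause was tested.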

How the results depend on the processing

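The number of field transcripts followed the thresholds. It was 108 with a minimum of 10 RPKM and 26 with 100, 142 with a ratio of 8 and 30 with 32, and 104 with 160 DAP within 3-fold, and stayed between 44 and 67 under the other 5 alternatives. Rescaled libraries gave 64, of which 52 were among the 65, and a median log2 ratio of 160 to 120 DAP of 0.32.

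Against AZ30, the 16 contigs called became 5 when only contigs not chosen for a tissue difference were counted, an alternative added after the data were seen, and 9 to 16 when 1 time was left out. Against P150, the 7 became 1 in that way, 2 with a filter of 1 read in 4 libraries, and 2 to 5 when 1 time was left out. Called under all alternatives that could test them were 8 of the 16 (LOC105044287, AILP1, the aminotransferase, GEK1, CBSX1, the glucanase, 1 cytidine deaminase and the CIB1-like contig) and 2 of the 7 (the glucanase and the CIB1-like contig). At 0 h, 3 of 5 contigs were called after adjustment.

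Taking all reads sequenced as library totals, unassembled ones included, was added after the data were seen. The counts were then 16 against AZ30, 8 against P150, 6 at 0 h and 27 after ethylene.

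Of 397 values of single contigs under alternatives, 334 kept their side, 41 lost and 4 gained a call, and 18 turned negative, all of contigs not called. On the log2 scale against P150, these were, with a filter of 1 read, the cytochrome P450 (-0.11), LOC105044287 (-0.12), the kinase (-0.075), the leucine-rich repeat (-0.049) and the lipid transfer protein (-0.16), with library totals LOC105044287 (-0.00050), and with all reads sequenced as totals LOC105044287 (-0.024) and the lipid transfer protein (-0.023). The others had 1 time left out, with lowest and highest values of -0.29 and 1.20 for the cytochrome P450 and -0.066 and 2.51 for the gluconokinase against AZ30. Against P150 they were -0.10 and 0.63 for the cytochrome P450, -0.083 and 0.25 for LOC105044287, -0.042 and 0.41 for the kinase, and -0.15 and 0.27 for the lipid transfer protein. The cause was not tested. The labels hold no replicate numbers that could pair samples, and the matched times were a term of the model in each fit.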
